A study of Mus musculus with 36 samples.

Results

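Expression in the mouse pre-B cell line B3 was compared between cells with inducible Ikaros and control cells 2 h after the addition of 4-hydroxy-tamoxifen (4-OHT). The comparison takes the 6 mRNA-seq libraries labelled 2 h, 3 from each line, out of the 36 libraries of the series, and covers all 12762 genes of the table. The libraries were chosen by line and time, and no measured value entered that choice. Both lines were made by retroviral transduction of B3 with an MSCV vector. The Ikaros line carries haemagglutinin-tagged wild type Ikaros fused to the hormone-binding domain of the estrogen receptor (HA-Ikaros-ERt2). The control line carries the ERt2 vector without Ikaros. Both vectors also hold GFP, which is translated from the same transcript and was used to sort the cells of both lines. The labels list 4-OHT at 0.5 uM for both lines, so the control cells are the background for drug and culture. Each line is 1 transduced population of 1 cell line, and the 3 replicates of each line are cultures of batches 1, 3 and 4. P-values therefore measure the spread between cultures of these populations and not between animals. Leaving out replicate 1, 2 or 3 of every group means leaving out that numbered culture of each line and time, and at 2 h the numbers stand for batches 1, 3 and 4.

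Ikaros, encoded by Ikzf1, is a zinc finger transcription factor that B cell precursors need to leave the dividing large pre-B stage and become small resting pre-B cells. It binds DNA at a TGGGAA core, works with the NuRD chromatin remodelling complex, and is known both to silence and to activate genes. In the inducible system the fusion protein is already made but is held in the cytoplasm, and 4-OHT lets it enter the nucleus. The time of 2 h is the first time after induction in this series. Large pre-B cells carry the pre-B receptor, made of an immunoglobulin heavy chain and the surrogate light chain proteins encoded by Igll1, Vpreb1 and Vpreb2, and divide with high Myc and interleukin 7 signalling.

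All values are log2 levels after the normalization of the authors, and the base is taken from their method, since the table does not name it. The table was shifted so that its lowest entry is 1, so a difference of 1 is a doubling and a level is no count. Within each line the libraries at 2 h correlated at 0.970 to 0.990 across genes, against 0.988 to 0.992 within the lines at 0 h. The quality records of the study give the libraries at 2 h different preparation runs and a high read duplication to the Ikaros library of batch 4, so the counts of calls are also given without that library. The paper describes high duplication in most samples, which it ties to sequencing depth. Ikzf1 (ENSMUSG00000018654; GRCm38 chromosome 11, 11685003 to 11772926, forward strand) stood at 14.71, 14.73 and 14.17 in the control libraries of batches 1, 3 and 4 and at 19.90, 20.23 and 19.63 in the Ikaros libraries, so each library went with the line in its label. Vector and endogenous transcripts of Ikzf1 are not separated. Of the 12 markers of pro-B and pre-B cells, all 12 were in the table, 4 were lower in Ikaros cells, 1 was higher and 7 were not called. The lower count was 6 with the replicate block, 1 and 2 without replicate 2 and 3 of every group, and 2 without the control library of batch 1. Of 8 T cell markers 3 were in the table and 0 were called, with Cd3d, Cd3e, Cd3g, Cd4 and Cd8a not listed. Of 6 mature B and plasma cell markers only Cr2 was in the table and it was not called (0 of both lists, limma, and 0 at an unadjusted p under 0.05). Of 6 myeloid markers Lyz2, Cd68 and Itgam were in the table, while Csf1r, Mpo and Csf3r were not listed. Lyz2 (2.66) and Cd68 (1.11) were higher, at levels of at most 10.69 ± 0.13 (SD, n = 3). Lyz2 had an adjusted p of 0.0735 in a fit of the 2 h groups alone with a replicate block. Cd68 had an adjusted p of 0.0691 in a fit of the compared groups alone, 0.0895 and 0.181 without replicate 1 and 2 of every group, 0.0607 without the Ikaros library of batch 1 and 0.0967 without the control library of batch 4. Of 9 erythroid markers 4 were in the table, and the globins Hbb-b1 (-2.13) and Hbb-b2 (-1.83) were lower. Hbb-b1 had an adjusted p of 0.0904 in a fit of the 2 h groups alone with a replicate block and 0.0706 and 0.0635 without replicate 1 and 3 of every group. Hbb-b2 had an adjusted p of 0.0848 without replicate 2 of every group. The part of these markers in other differences was not tested.

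At 2 h the Ikaros cells had lower levels of Myc, the surrogate light chain gene Igll1, the survival gene Bcl2l1, targets of STAT5 and feedback genes of the ERK pathway. They had higher levels of the end-joining ligase Lig4, the chromatin organizer Satb1 and most measured genes of glycolysis. A part of these differences was there before the drug, among them those in the STAT5 targets and a part of that in Satb1. The glycolysis median was 0.33 at 0 h and 0.61 at 2 h. A change from 0 h was called for 0 of these 22 genes (limma, 3 at an unadjusted p under 0.05). Their 15 higher calls at 2 h fell to 3 and 2 without replicate 1 and 2 of every group. Between the lines at 2 h, 2432 of 12762 genes were called, which is 19.1% of the genes tested. Called here means an adjusted p under 0.05 (limma, two-sided, Benjamini-Hochberg over all genes). In Ikaros cells 1171 genes were higher (9.18% of all genes) and 1261 were lower (9.88%). Most differences were small: the median size of a called difference was 0.73, and 1568 of the called genes differed by less than 1 on the log2 scale. Of the 864 with a difference of at least 1, 508 were lower and 356 higher, and 128 of them had a mean level that reached the median of all gene means, 11.72. Of all called genes, 2245 had every Ikaros library beyond every control library, a pattern that 27.9% of all genes showed. The same sign in each of the 3 batches was seen in 2418 of the called genes. The call rests on the same libraries and so favours both patterns, and the share over all genes was not counted for the second.

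The number of calls moved with the fit. It was 860 when only the 2 h libraries were fitted without the batch and 1725 when the same 6 libraries were fitted with the batch as a replicate block, 962 without replicate 1 and 804 without replicate 2 of every group. Without the Ikaros library of batch 4 it was 1937, with 920 higher and 1017 lower, and 761 of at least 1 in size. Leaving out any other single library at 2 h gave 1713 to 2478 calls. Across genes, the Ikaros minus control differences of the 3 batches correlated at 0.53 to 0.66, given as a description over 12762 genes that share libraries.

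The lines differed before the drug, so the difference at 2 h was set against the difference at 0 h, a comparison that also compares collection occasions, since the 0 h cultures were collected separately, in batches 1, 2 and 4, and per the methods without drug. The labels list 4-OHT at 0.5 uM for the 0 h libraries too, and the wording before the drug follows the methods. At 0 h, 1063 genes were called (8.33%). Of the 2432 genes called at 2 h, 663 were called at 0 h too, which is 27.3% of the 2 h calls and 62.4% of the 0 h calls, and 635 of these had the same direction. The change of the difference from 0 h to 2 h was called for 396 genes (3.1%), 155 upward and 241 downward. In the fit with the batch of the culture as a replicate block this number was 661, and it fell to 257 when only the 4 groups compared were fitted, to 54 without replicate 1 and to 55 without replicate 2 of every group. Without the Ikaros library of batch 4 at 2 h it was 299. Among the 2432 calls, 312 had a change called in their own direction, 118 of them higher and 194 lower, and 30 of these 312 were called at 0 h too. For 1515 of the 2 h calls, or 62.3%, neither a difference of the same direction at 0 h nor a change from it was called, so for these genes the start of the difference was not resolved.

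**Figure D1:**
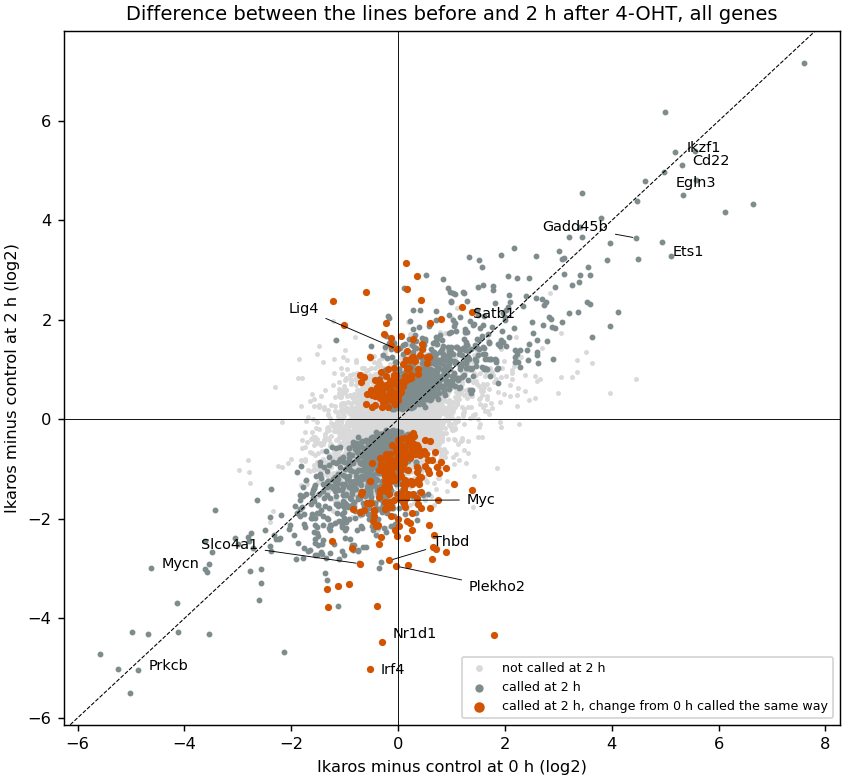
Difference between Ikaros and control cells on the log2 scale at 0 h (horizontal) and at 2 h (vertical) for each of 12762 genes, with the dashed line at equal differences. Grey points are called at 2 h, and orange points also have a change from 0 h called in the same direction; Plekho2, Thbd, Irf4 and Nr1d1 moved from -0.03, -0.16, -0.53 and -0.31 at 0 h to at least 2.84 below 0, while Cd22 (5.31 and 5.12) and Egln3 (4.99 and 4.96) lie on the dashed line.

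Among called genes above the median level with the lines apart and with a change since 0 h called in the same direction, the 6 with the largest falls at 2 h were Plekho2, Slco4a1, Thbd, 2900097C17Rik, Fam212a and Fam43a. Plekho2, a protein with a pleckstrin homology domain, stood at 14.75, 14.90 and 14.13 in the control libraries and at 11.79, 11.89 and 11.24 in the Ikaros libraries of batches 1, 3 and 4. The difference was -0.03 at 0 h, and the change was -2.92 (SE 0.34, adjusted p 2.56e-06). Within each batch the Ikaros library was lower by close to 3, with differences of -2.96, -3.01 and -2.89, although the level itself was lowest in batch 4 in both lines.

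Slco4a1 (ENSMUSG00000038963; GRCm38 chromosome 2, 180456245 to 180474867, forward strand), an organic anion transporter, stood at 14.52, 14.52 and 14.56 in control and at 11.62, 11.62 and 11.65 in Ikaros cells, a 7.47-fold lower level (log2 -2.90, SE 0.09, adjusted p 6.65e-18). The lines already differed by -0.72 at 0 h, and the change since then was -2.18 (adjusted p 2.75e-11). RefSeq lists 2 start sites for this gene on GRCm38.p6. The promoter window of the inner one, chr2:180460728-180461027 on the forward strand, is shown because it holds the Ikaros core, written in capitals in its complementary form TTCCCA and beginning 112 bases before the start site. The window of the outer start site holds no copy of these letters.

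Slco4a1 inner promoter: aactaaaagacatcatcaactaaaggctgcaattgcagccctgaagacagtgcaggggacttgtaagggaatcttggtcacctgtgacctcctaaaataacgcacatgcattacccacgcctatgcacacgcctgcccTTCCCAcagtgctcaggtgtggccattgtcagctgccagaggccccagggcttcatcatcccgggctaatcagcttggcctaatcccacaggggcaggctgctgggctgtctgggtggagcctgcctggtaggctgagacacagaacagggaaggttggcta

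Thbd encodes thrombomodulin, a receptor for thrombin at the cell surface. Its levels were 12.92, 13.03 and 12.30 in control and 10.06, 10.17 and 9.52 in Ikaros cells, with a difference of -0.16 at 0 h and a change of -2.67 (adjusted p 7.17e-07). Fam43a stood at 14.57, 14.56 and 14.19 against 12.68, 12.37 and 11.87, and its change was -2.16 (adjusted p 2.91e-05). The change in Fam43a had an adjusted p of 0.058 without replicate 2 of every group. For Fam212a, which overlaps a gene on the opposite strand, the values were 13.28, 13.29 and 13.04 against 10.78, 10.83 and 10.82 and the change -2.56 (adjusted p 7.73e-09). That the lines did not overlap was a condition of the choice. In these 3 genes the Ikaros libraries differed among themselves by less than the lines did. The noncoding transcript 2900097C17Rik had a wide spread, from 13.02 to 14.85 in control and from 10.21 to 12.45 in Ikaros cells, and its change of -3.21 was not firm (adjusted p 0.0189). The change in 2900097C17Rik had an adjusted p of 0.114 in a fit of the compared groups alone, 0.228, 0.198 and 0.0837 without replicate 1, 2 and 3 of every group, 0.08 without the Ikaros library of batch 4 and 0.0755 without the control library of batch 1.

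By the same limits, the 6 genes with the largest rises at 2 h were Satb1, Pik3r6, Agfg2, Tubb2b, P2ry10 and Neil1, an order by the difference at 2 h and not by the size of the change. Satb1 (ENSMUSG00000023927; GRCm38 chromosome 17, 51736187 to 51833290, reverse strand), a protein that organizes chromatin loops in lymphocytes, stood at 10.62, 10.92 and 10.80 in control and at 12.79, 13.07 and 13.24 in Ikaros cells. It was higher by 1.19 before the drug and by 2.26 after 2 h, a change of 1.06 (SE 0.16, adjusted p 0.000118). The change in Satb1 had an adjusted p of 0.0823 without replicate 2 of every group. Agfg2, an Arf GTPase-activating protein, had no difference at 0 h (0.05, adjusted p 0.861) and then stood apart by more than 1.5 in each batch, from 12.68, 12.53 and 12.54 in control to 14.33, 14.19 and 14.26 in Ikaros cells. Its change of 1.63 (adjusted p 2.43e-08) was called in every alternative fit.

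Pik3r6, a regulatory subunit of phosphoinositide 3-kinase gamma, stood at 12.28, 12.12 and 12.63 against 14.06, 14.42 and 14.60, with a change of 1.22 (adjusted p 0.00338). The change in Pik3r6 had an adjusted p of 0.054 in a fit of the compared groups alone and 0.151 and 0.279 without replicate 1 and 2 of every group. P2ry10, a lymphocyte receptor for lysophosphatidylserine, stood at 11.01, 11.10 and 10.75 against 12.71, 12.53 and 12.48, with a change of 1.34 (adjusted p 0.000913). The change in P2ry10 had an adjusted p of 0.125 and 0.0736 without replicate 1 and 2 of every group. The other two rises were in Tubb2b, a beta-tubulin, with a change of 1.77 (adjusted p 0.00107, and adjusted p of 0.147 without replicate 1 of every group), and in Neil1, a glycosylase of base excision repair, with 1.63 (adjusted p 0.000121). The change in Neil1 had an adjusted p of 0.107 without replicate 1 of every group. That the 3 Ikaros libraries lay above the 3 control libraries in all 6 genes was a condition of their choice.

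**Figure D2:**
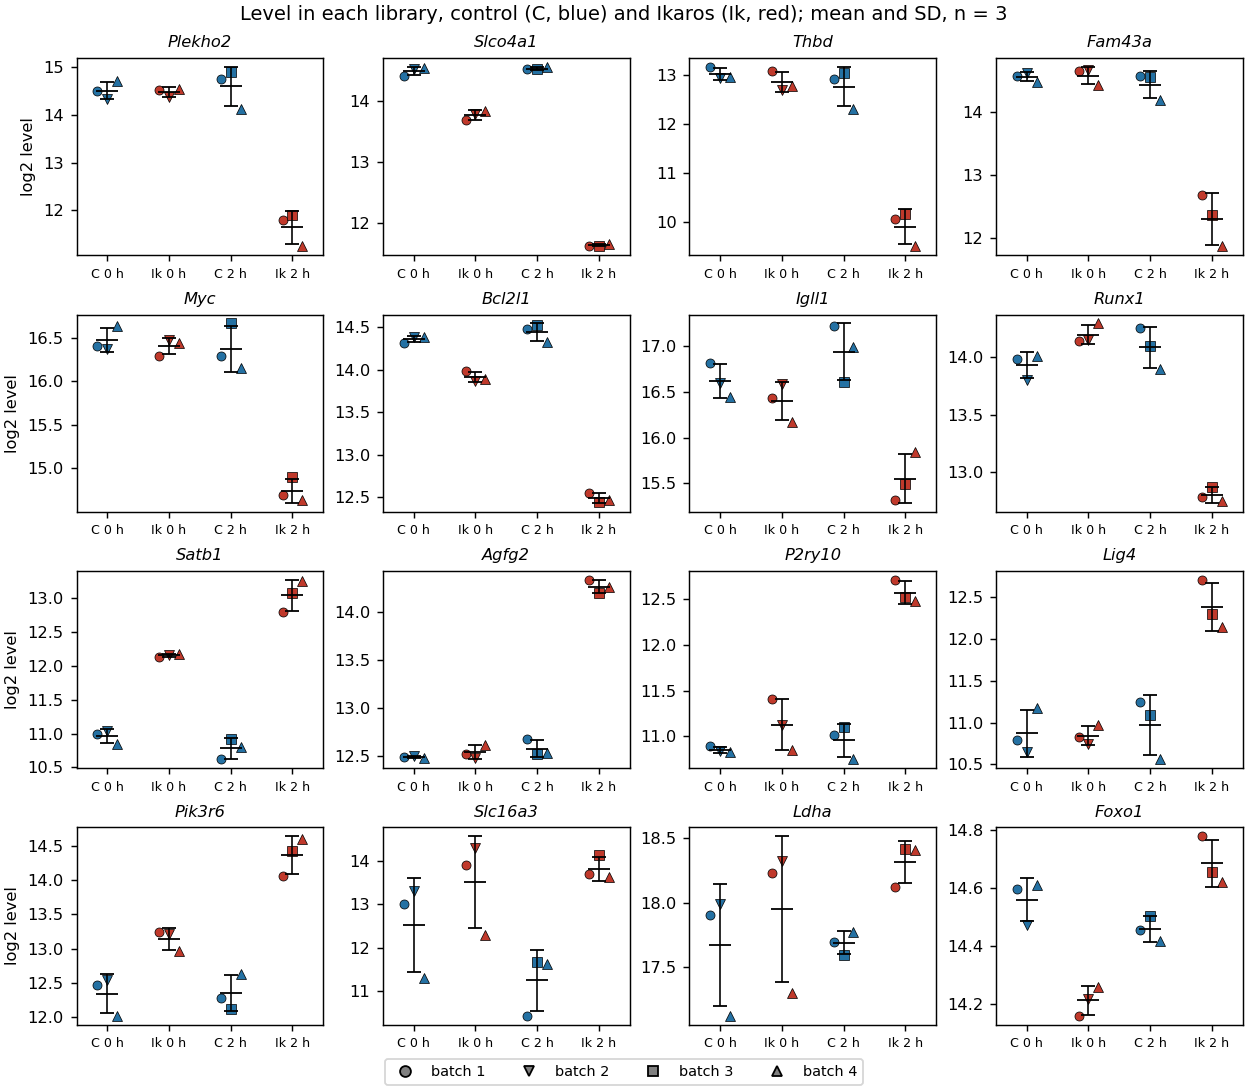
Log2 level of 16 genes in each library of control (C, blue) and Ikaros cells (Ik, red) at 0 h and 2 h, with the mean and SD of 3 libraries and the culture batch as the point shape. The Ikaros libraries at 2 h stand apart in Plekho2, Slco4a1, Thbd, Fam43a, Bcl2l1 and Agfg2, whereas at 0 h the SD of Slc16a3 (1.08 and 1.06) and of Ldha (0.48 and 0.57) was above the difference between the lines (0.97 and 0.28).

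Several of the largest differences at 2 h were there before the drug. Among the 10 largest rises and 10 largest falls above the median level, Gadd45b, a growth arrest gene, had a difference of 4.46 at 0 h and of 3.65 at 2 h. The chloride exchanger gene Clcn5, the Rgs7 binding partner Rgs7bp and the cadherin Fat1 had differences of 1.82, 1.97 and 1.68 at 0 h, against 2.35, 2.14 and 1.71 after the drug. Nudt4, which cleaves diphosphoinositol phosphates, went from 3.54 to 2.35. On the lower side, the cyclic AMP phosphodiesterase gene Pde8a differed by -2.39 and -2.64, the protein kinase C gene Prkch by -1.49 and -2.34, the band 4.1-like gene Epb4.1l4b by -1.28 and -2.22, and the noncoding Gm12840 by -3.61 and -2.45. All of these were called at both times, and for none was the change between them called, which does not show that the differences were equal.

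The pre-B receptor list holds 7 genes, all measured. In Ikaros cells 4 were lower, 0 were higher (limma, 0 also at an unadjusted p under 0.05), and the list median was -0.41, against 9.88% lower calls and a median of 0.00 over all genes. Without replicate 2 of every group 2 were lower. The surrogate light chain gene Igll1 stood at 17.22, 16.61 and 16.99 in the control libraries and at 15.32, 15.50 and 15.84 in the Ikaros libraries. It was 2.61-fold lower at 2 h and differed by -0.22 at 0 h, and the change was -1.16 (adjusted p 0.0149). The change in Igll1 had an adjusted p of 0.0649 in a fit of the compared groups alone, 0.452 and 0.183 without replicate 1 and 2 of every group and 0.0618 without the control library of batch 1. Vpreb2 stood at 13.37, 13.80 and 13.62 against 11.85, 12.14 and 12.06 and was lower by 1.28 before the drug, with a change of -0.30 (adjusted p 0.852), and its reads can be shared with the near-identical Vpreb1.

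Vpreb1 itself stood at 16.68, 15.92 and 16.44 against 15.13, 15.56 and 15.89. The difference of -0.82 passed the test (adjusted p 0.0222) but was led by batch 1, where it was -1.54, against -0.36 and -0.55 in the others. Vpreb1 had an adjusted p of 0.148 in a fit of the compared groups alone, 0.14 in a fit of the 2 h groups alone with a replicate block, 0.472 and 0.06 without replicate 1 and 2 of every group, 0.13 without the Ikaros library of batch 1 and 0.13 and 0.0589 without the control library of batch 1 and 4. Cd79a, a signalling chain of the receptor, was lower by only 0.41 (adjusted p 0.00546) and was so at 0 h (-0.47). Cd79a had an adjusted p of 0.133 in a fit of the compared groups alone, 0.0855 in a fit of the 2 h groups alone with a replicate block and 0.185 and 0.0874 without replicate 2 and 3 of every group. Its partner Cd79b (0.15), the heavy chain gene Ighm (0.20) and Vpreb3 (-0.37) were not called. The promoter window of Igll1, chr16:16863936-16864235 on the reverse strand of GRCm38.p6, is printed because this gene is the classical target of Ikaros in pre-B cells, and holds no TGGGAA or TTCCCA. Only these exact letters were searched, so other forms of the site were not counted.

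Igll1 promoter: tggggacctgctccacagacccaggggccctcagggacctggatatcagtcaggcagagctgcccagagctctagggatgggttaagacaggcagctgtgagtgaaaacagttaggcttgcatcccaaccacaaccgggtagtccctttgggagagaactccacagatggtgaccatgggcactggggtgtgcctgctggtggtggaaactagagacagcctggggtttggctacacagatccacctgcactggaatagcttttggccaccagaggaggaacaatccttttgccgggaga

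In the signalling list downstream of the receptor, 19 of 20 genes were measured, 7 were lower and 2 higher, with a median of -0.28. With the replicate block 11 were lower, and without replicate 1 or 2 of every group 2 were. The lower count was 4 and 3 without the Ikaros library of batch 3 and 4, and 3 without the control library of batch 1 or of batch 3. Pik3cd, the delta catalytic subunit of phosphoinositide 3-kinase, was the firmest, at 14.45, 14.33 and 14.43 in control and 13.52, 13.51 and 13.55 in Ikaros cells (log2 -0.88, SE 0.07, adjusted p 3.56e-10). At 0 h the difference was -0.49, and the change was -0.39 (adjusted p 0.0191). The change in Pik3cd had an adjusted p of 0.157 in a fit of the compared groups alone, 0.323, 0.553 and 0.102 without replicate 1, 2 and 3 of every group and 0.0601 without the control library of batch 1. The inhibitory receptor Cd22 differed by 5.12, and by 5.31 at 0 h. Protein kinase C beta (Prkcb) stood at 8.60, 7.94 and 6.70 against 2.05, 1.02 and 5.08, where 2 Ikaros libraries lie near the table minimum of 1, so the size of the difference is uncertain. It differed by -4.87 at 0 h, and at 2 h had an adjusted p of 0.0832 in a fit of the 2 h groups alone with a replicate block. The kinase Syk was called lower by only 0.25. Syk had an adjusted p of 0.319 in a fit of the compared groups alone and 0.138 in a fit of the 2 h groups alone with a replicate block. Without replicate 1, 2 and 3 of every group it was 0.132, 0.413 and 0.0723. The call was also lost without the Ikaros library of batch 3 or 4 and without the control library of batch 1 or 3. The kinase Btk (-0.46) and the adaptor Blnk (-0.40) were not called.

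Of 23 measured transcription factors of the B lineage, 7 were lower and 4 higher. Over all genes 9.88% were lower and 9.18% higher, and the counts of the other lists are to be read beside these shares. Irf4, a factor that promotes light chain rearrangement, had the largest fall of any listed gene since 0 h. Its level was 9.28, 9.74 and 8.23 in control and 4.51, 3.87 and 3.83 in Ikaros cells, with a difference of -0.53 at 0 h and a change of -4.49 (SE 0.54, adjusted p 5.21e-06). The values are low for this table, where the median gene mean is 11.72, and a fold from them depends on the normalization of few reads. At 24 h the difference was 0.11 (adjusted p 0.824).

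Runx1, a factor for early B cell genes, stood at 14.26, 14.10 and 13.90 in control and at 12.78, 12.87 and 12.74 in Ikaros cells, a change of -1.55 since 0 h (adjusted p 3.78e-05). Its relative Runx3 was higher by 1.08 (adjusted p 0.000113). Runx3 had an adjusted p of 0.0567 in a fit of the compared groups alone. Runx3 and the next 3 genes, Gfi1b, Bcl11a and Lef1, were chosen after their values were seen. Gfi1b, a repressor known from erythroid cells, stood at 14.70, 14.89 and 14.72 against 13.09, 13.17 and 12.99 and had a change of -1.18 (adjusted p 0.000456). The change in Gfi1b had an adjusted p of 0.081 without replicate 2 of every group. Bcl11a, which early lymphoid cells need, stood at 13.56, 13.62 and 13.41 against 12.48, 12.37 and 12.29, and was higher by 0.43 at 0 h, so that the sign turned (change -1.58, adjusted p 1.79e-06). Lef1, a Wnt pathway factor of dividing pro-B cells, was lower by 1.89 (adjusted p 4.90e-05) without a called change from 0 h.

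Ets1 (3.58) and the germinal centre repressor Bcl6 (2.06) were higher, and were higher by 4.93 and 2.00 before the drug, and the same held on the lower side for Id1 (-2.15, with -1.51 at 0 h). The lineage factors Pax5 (0.26), Tcf3 (0.00) and Foxp1 (-0.09) were not called. Ebf1 was higher by 0.51 (adjusted p 0.0434), a call that 8 of 15 alternatives did not give. Ebf1 had an adjusted p of 0.263 in a fit of the compared groups alone, 0.0522 in a fit of the 2 h groups alone with a replicate block, 0.182 and 0.288 without replicate 1 and 2 of every group, 0.0537 and 0.29 without the Ikaros library of batch 3 and 4 and 0.163 and 0.149 without the control library of batch 1 and 3.

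For V(D)J recombination and end joining, 13 of 13 genes were measured, of which 3 were higher and 0 lower (1 lower at an unadjusted p under 0.05 and 1 with the replicate block, limma), with a median of 0.21. The higher count was 1 without replicate 1 or 2 of every group, without the Ikaros library of batch 4, and without the control library of batch 1 or of batch 3. Lig4 (ENSMUSG00000049717; GRCm38 chromosome 8, 9969049 to 9977686, reverse strand), the ligase that joins broken gene segments, was the firm one. It stood at 11.25, 11.09 and 10.56 in control and at 12.71, 12.30 and 12.15 in Ikaros cells, with a difference of -0.03 at 0 h. The change was 1.44 (adjusted p 0.00269). The change in Lig4 had an adjusted p of 0.118 and 0.198 without replicate 1 and 2 of every group. Xrcc4, the partner of Lig4, was higher by 0.68 (adjusted p 0.0177). Xrcc4 had an adjusted p of 0.131 in a fit of the compared groups alone, 0.215 and 0.245 without replicate 1 and 2 of every group, 0.0881 without the Ikaros library of batch 4 and 0.0831 and 0.101 without the control library of batch 1 and 3. Dntt, which adds bases at the joints, was higher by 1.07 at a low level of 9.42 ± 0.10 (SD, n = 3; adjusted p 0.0433). Dntt had an adjusted p of 0.274 and 0.228 without replicate 1 and 2 of every group, 0.0729, 0.0875 and 0.112 without the Ikaros library of batch 1, 3 and 4 and 0.11, 0.121 and 0.0517 without the control library of batch 1, 3 and 4. The recombinase genes Rag1 (-0.16, adjusted p 0.775) and Rag2 (0.29, adjusted p 0.242) did not pass. One of the 2 promoter windows that RefSeq gives for Lig4, chr8:9976262-9976561 on the reverse strand, holds the core in its TTCCCA form, beginning 95 bases before the start site. It is shown because this gene rose and holds these letters in its window.

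Lig4 promoter: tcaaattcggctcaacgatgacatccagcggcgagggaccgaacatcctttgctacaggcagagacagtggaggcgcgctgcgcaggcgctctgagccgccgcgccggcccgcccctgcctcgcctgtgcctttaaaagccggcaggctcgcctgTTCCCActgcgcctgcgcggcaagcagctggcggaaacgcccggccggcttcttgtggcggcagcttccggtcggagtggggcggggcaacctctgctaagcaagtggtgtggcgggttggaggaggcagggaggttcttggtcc

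Of the 13 NuRD genes, 4 were higher and 0 lower (limma, 0 also at an unadjusted p under 0.05). The remodelling ATPase Chd3 stood at 13.54, 13.59 and 13.64 against 14.29, 14.19 and 14.43 (log2 0.71, adjusted p 1.75e-05), while Chd4, the other ATPase, differed by -0.03 (adjusted p 0.882). The subunits Mta3 (0.59, adjusted p 7.64e-05) and Mta1 (0.55, adjusted p 0.000144) were higher. Mta3 had an adjusted p of 0.0599 in a fit of the compared groups alone, and Mta1 an adjusted p of 0.0647 in a fit of the compared groups alone and 0.0507 in a fit of the 2 h groups alone with a replicate block. The fourth, Hdac1, was higher by 0.27 (adjusted p 0.025), a call that 8 of 15 alternatives did not give. Hdac1 had an adjusted p of 0.264 in a fit of the compared groups alone, 0.11 in a fit of the 2 h groups alone with a replicate block, 0.271 and 0.31 without replicate 1 and 2 of every group, 0.117 and 0.0649 without the Ikaros library of batch 1 and 3 and 0.0604 and 0.0658 without the control library of batch 3 and 4.

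Myc, a driver of growth and division, stood at 16.29, 16.67 and 16.16 in the control libraries and at 14.69, 14.90 and 14.64 in the Ikaros libraries. The difference was -1.63 (SE 0.17, adjusted p 4.97e-08), against -0.07 at 0 h (change -1.56, adjusted p 0.000141). The change in Myc had an adjusted p of 0.0613 without replicate 2 of every group. Its relative Mycn was lower by 2.99 but had been lower by 4.63 before the drug. The shared partner Max (-0.28) was not called, and in the network of 11 genes 2 were lower and 2 higher.

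Ribosome biogenesis genes, many of them known Myc targets, were lower in 7 of 33 cases and higher in 0 (limma, 0 also at an unadjusted p under 0.05), with a median of -0.27. The largest was Polr1b, a subunit of RNA polymerase I, at 13.90, 13.74 and 13.73 against 13.01, 13.18 and 12.93 (log2 -0.75, adjusted p 0.000199). The other named members were small: -0.51 for Nip7, -0.45 for Tsr1 and -0.39 for Wdr75. With the replicate block 13 of the 33 were lower, without replicate 1 of every group 1 was, without replicate 2 of every group 2 were and without the control library of batch 1 4 were, while the median stayed between -0.33 and -0.20 in the fits that left out a replicate or a library. A change from 0 h was called for 0 of the 33 (limma), for 2 at an unadjusted p under 0.05 and for 1 with the replicate block.

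Calls in the cell cycle lists are set beside 9.88% lower and 9.18% higher calls over all genes. In the S phase list 2 of 28 genes were lower and 0 higher (limma, with 7 lower and 2 higher at an unadjusted p under 0.05 and a median of -0.13), and in the G2/M list 4 of 26 were higher and 1 lower (median 0.08). The S phase count of lower genes was 4 without replicate 3 of every group and 5 without the control library of batch 4. The G2/M counts were 0 higher and 0 lower without replicate 1 or 2 of every group, and the higher count was 2 without the Ikaros library of batch 1 or of batch 3 and 1 without the control library of batch 3. Ccnb1, cyclin B1, was lower (-0.65, adjusted p 0.00145) with an adjusted p of 0.0557 in a fit of the compared groups alone and 0.0649 and 0.111 without replicate 1 and 2 of every group. The thymidine kinase Tk1 was lower by 0.39 (adjusted p 0.000528). Tk1 had an adjusted p of 0.12 in a fit of the compared groups alone, 0.0743 in a fit of the 2 h groups alone with a replicate block and 0.0831 without replicate 1 of every group. Among 17 genes of G1 control 3 were higher and 2 lower. These counts were 0 and 0 without replicate 2 of every group and 1 and 3 without replicate 3. The cyclin-dependent kinase Cdk6 stood at 14.55, 14.55 and 14.26 against 13.98, 13.78 and 13.52. Its partner cyclin Ccnd2 stood at 14.79, 14.91 and 14.61 against 14.22, 14.16 and 13.94. Both were higher in Ikaros cells at 0 h in value (0.33 and 0.70, the second called), and their changes were -1.02 (adjusted p 0.00962, but adjusted p of 0.0846, 0.284 and 0.0869 without replicate 1, 2 and 3 of every group) and -1.36 (adjusted p 0.00191). The change in Ccnd2 had an adjusted p of 0.153 and 0.103 without replicate 1 and 2 of every group. The inhibitor p27, encoded by Cdkn1b, stood at 11.80, 12.05 and 11.52 against 12.83, 13.09 and 12.30 and was higher by 0.95, of which 0.66 was there at 0 h. It had an adjusted p of 0.0842 in a fit of the compared groups alone and 0.0579 and 0.072 without replicate 1 and 2 of every group.

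Of 15 genes of cytokine receptors and STAT5, the pathway of interleukin 7, 7 were lower and 2 higher, with a median of -0.54, the lowest of the lists with at least 5 measured genes. The STAT5 targets Cish, Pim1, Socs2 and Il2ra led it, with -2.21, -1.99, -1.75 and -1.97. Pim1, a survival kinase, stood at 14.23, 14.83 and 13.98 against 12.71, 12.54 and 11.83. All 4 were lower at 0 h too, by 2.05, 1.62, 1.00 and 2.40, and no change since then was called. The interleukin 7 receptor gene Il7r was lower by 0.54 (adjusted p 0.0217). Il7r had an adjusted p of 0.102 in a fit of the compared groups alone, 0.066 in a fit of the 2 h groups alone with a replicate block, 0.295 and 0.0838 without replicate 2 and 3 of every group, 0.126 without the Ikaros library of batch 4 and 0.0551 and 0.0686 without the control library of batch 1 and 3. In the other direction, Pim2, another Pim kinase, examined after its value was seen, went from 11.13, 11.22 and 10.91 in control to 11.78, 11.97 and 11.85 in Ikaros cells, with a change of 0.69 (adjusted p 0.00499). The change in Pim2 had an adjusted p of 0.0714 in a fit of the compared groups alone and 0.13 and 0.309 without replicate 1 and 2 of every group.

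The list of immediate early genes and ERK feedback regulators had 11 of 28 genes lower and 1 higher, with a median of -0.37. These genes report on growth factor and receptor signals, and both feedback inhibitors and early response genes were among those lower. Ier3, an early response gene, stood at 11.99, 12.22 and 11.80 against 10.08, 9.80 and 9.99, with a change of -1.57 (adjusted p 0.00808). The change in Ier3 had an adjusted p of 0.17 and 0.435 without replicate 1 and 2 of every group. The ERK pathway inhibitor Spry1 stood at 12.39, 12.30 and 11.63 against 10.51, 10.59 and 10.21, with a change of -1.42 (adjusted p 0.0192). The change in Spry1 had an adjusted p of 0.277 and 0.39 without replicate 1 and 2 of every group, 0.0646 without the Ikaros library of batch 4 and 0.0705 and 0.059 without the control library of batch 1 and 3. Egr3 was lower by 2.11 at low levels of 8.31 ± 0.65 and 6.20 ± 0.82 (SD, n = 3; adjusted p of 0.0622 in a fit of the compared groups alone and 0.103 and 0.0772 without replicate 1 and 2 of every group), and Ier2 by 1.34, with -0.87 at 0 h.

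Of the phosphatases that switch ERK off, which were examined after their values were seen, Dusp6 was lower by 1.33 (adjusted p 0.000141). Dusp6 had an adjusted p of 0.0678 in a fit of the compared groups alone. Dusp4 and Dusp5 turned their signs. Dusp4 was higher by 1.05 at 0 h and lower by 1.29 at 2 h (change adjusted p 0.00137, but adjusted p of 0.15 and 0.152 without replicate 1 and 2 of every group), and Dusp5 went from -0.65 to 0.85 (change adjusted p 0.000189). The change in Dusp5 had an adjusted p of 0.132 without replicate 1 of every group. The early genes Egr1 (-0.91), Fos (-0.36) and Jun (-0.11) were not called. Without the Ikaros library of batch 4 the list had 8 lower genes, and without replicate 1 or 2 of every group it had 5 in both cases.

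Among 13 NF-kB genes 3 were lower and 1 higher, with 1 lower without replicate 1 of every group. Tnfaip3, the feedback inhibitor A20, stood at 10.06, 9.85 and 9.84 against 8.39, 8.98 and 8.48, with a change of -1.45 (adjusted p 0.0301). The change in Tnfaip3 had an adjusted p of 0.675 and 0.0823 without replicate 1 and 2 of every group, 0.0762 and 0.0783 without the Ikaros library of batch 1 and 4 and 0.0801 and 0.0517 without the control library of batch 1 and 3. Nfkb2 was lower by 0.61, at 11.40 in each of the 3 Ikaros libraries. Icam1, an adhesion molecule that NF-kB is known to induce, went the other way, from 12.79, 12.89 and 12.88 to 13.72, 13.70 and 13.54, and its change of 0.92 (adjusted p 6.04e-07) was called in every alternative fit. The promoter window of Tnfaip3 at its outer start site, chr10:19015361-19015660 on the reverse strand, holds the core beginning 197 bases before the start site, and is shown as another gene lower in Ikaros cells with these letters in its window.

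Tnfaip3 promoter: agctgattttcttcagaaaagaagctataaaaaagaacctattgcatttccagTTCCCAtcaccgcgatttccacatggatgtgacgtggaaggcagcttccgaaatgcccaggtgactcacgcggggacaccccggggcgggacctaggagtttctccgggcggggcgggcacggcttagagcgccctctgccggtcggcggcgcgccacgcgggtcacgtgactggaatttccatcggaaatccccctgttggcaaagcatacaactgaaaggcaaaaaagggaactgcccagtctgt

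Of 10 measured Bcl2 family genes 3 were lower. Bcl2l1, which encodes the survival protein Bcl-xL, stood at 14.47, 14.52 and 14.32 in control and at 12.55, 12.45 and 12.47 in Ikaros cells, a 3.86-fold lower level. The difference was -0.45 at 0 h, and the change of -1.50 (SE 0.19, adjusted p 1.24e-05) was called in every alternative fit. The death-promoting Bbc3 was also lower, at 11.03, 11.45 and 11.39 against 10.37, 10.54 and 10.24 (adjusted p 0.000166), as was Bmf (-2.01) at a low level of 5.83 ± 0.20 in control (SD, n = 3; adjusted p of 0.0531 without replicate 2 of every group). Mcl1 (-0.35), Bcl2 (-0.03), Bax (0.06) and Bcl2l11 (0.07) were not called.

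Genes of glucose metabolism were higher in Ikaros cells at 2 h. Of 22 measured genes of glucose uptake and glycolysis 15 were higher and 1 lower, against 9.18% and 9.88% of all genes, and the median was 0.61. The median was 0.62, 0.63 and 0.49 in batches 1, 3 and 4, so each batch showed it. It was 0.33 at 0 h and -1.54 at 24 h, and a change from 0 h to 2 h was called for 0 of the 22 (limma), for 3 at an unadjusted p under 0.05 and for 1 with the replicate block. The count was 14 without the Ikaros library of batch 4, 8 without the Ikaros library of batch 3 or the control library of batch 1, 3 without replicate 1 and 2 without replicate 2 of every group, while the median stayed between 0.51 and 0.69 in the fits that left out a replicate or a library.

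Slc16a3, the lactate exporter MCT4, stood at 10.44, 11.67 and 11.63 against 13.70, 14.12 and 13.62 (log2 2.57, SE 0.52, adjusted p 0.000771). The glucose transporter gene Slc2a1 stood at 12.87, 13.16 and 13.13 against 13.90, 14.32 and 14.06 (adjusted p 0.00333). Slc2a1 had an adjusted p of 0.0561 and 0.146 without replicate 1 and 2 of every group. The hexokinase Hk1, at 12.72, 12.84 and 12.62 against 13.56, 13.50 and 13.57, and the glycolytic enzyme Gapdh, at 18.22, 18.35 and 18.42 against 18.80, 18.88 and 18.85, were added after their values were seen. Hk1 was higher at 0 h too (0.65), and Gapdh had an adjusted p of 0.0631 in a fit of the compared groups alone and 0.161 and 0.0858 without replicate 1 and 2 of every group. Hk2, the other hexokinase, did not pass (-0.29, adjusted p 0.189). Pfkfb3, a regulator of the phosphofructokinase step, was lower by 0.96 (adjusted p 0.00421). Pfkfb3 had an adjusted p of 0.125 in a fit of the compared groups alone and 0.173 without replicate 2 of every group. Pfkfb4 was higher by 1.59 at low levels, with an adjusted p of 0.0663 without replicate 2 of every group.

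Ldha, lactate dehydrogenase, stood at 17.69, 17.59 and 17.77 against 18.12, 18.42 and 18.41, and its difference of 0.63 (adjusted p 0.0443) was lost in 8 of 15 alternatives. Ldha had an adjusted p of 0.0548 in a fit of the compared groups alone, 0.138 and 0.387 without replicate 1 and 2 of every group, 0.119 and 0.126 without the Ikaros library of batch 3 and 4 and 0.1, 0.128 and 0.0584 without the control library of batch 1, 3 and 4. Of the other genes the study followed, Slc7a5 (-0.03, adjusted p 0.936) changed sign between fits and Foxo1 (0.23, adjusted p 0.068) was not called, except with the replicate block (adjusted p 0.0476), although Foxo1 had been lower by 0.35 at 0 h and its change of 0.58 passed (adjusted p 0.00581). The change in Foxo1 had an adjusted p of 0.244 and 0.226 without replicate 1 and 2 of every group.

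Among 14 genes of the hypoxia response 8 were higher and 1 lower, with a median of 0.83. The prolyl hydroxylase genes Egln3 (4.96) and Egln1 (1.13) and the stress gene Ndrg1 (1.57) were higher at 0 h too, by 4.99, 0.61 and 2.79, and for Ndrg1 the change of -1.22 toward control passed (adjusted p 0.00581). The change in Ndrg1 had an adjusted p of 0.103 in a fit of the compared groups alone and 0.201 and 0.188 without replicate 1 and 2 of every group. Bnip3, a mitophagy gene, stood at 12.80, 13.01 and 13.45 against 14.64, 14.90 and 14.42 (adjusted p 0.0242). Bnip3 had an adjusted p of 0.231 and 0.296 without replicate 1 and 2 of every group, 0.0549 and 0.0782 without the Ikaros library of batch 1 and 3 and 0.0939 and 0.0666 without the control library of batch 1 and 3. Hif1a itself (0.25) was not called. Without the Ikaros library of batch 4 the count was 6 and without that of batch 3 it was 5. It was 4 without the control library of batch 1 and 4 and 3 without replicate 1 and 2 of every group.

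Of 23 genes of sterol and fatty acid synthesis 9 were higher and 1 lower, with a median of 0.37. Fdft1, squalene synthase, stood at 12.30, 12.54 and 12.42 against 13.29, 13.26 and 13.02 (log2 0.77, adjusted p 3.75e-06), and Hmgcs1, an early enzyme of the mevalonate pathway, at 14.41, 14.55 and 14.22 against 15.07, 15.28 and 14.89 (log2 0.69, adjusted p 0.000196). Hmgcs1 had an adjusted p of 0.062 in a fit of the compared groups alone. Sc4mol was higher by 0.87. The regulator genes Srebf2 (0.03) and Insig1 (0.03) were not called. The count was 3 without replicate 2 of every group, and 12 with the replicate block.

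**Figure D3:**
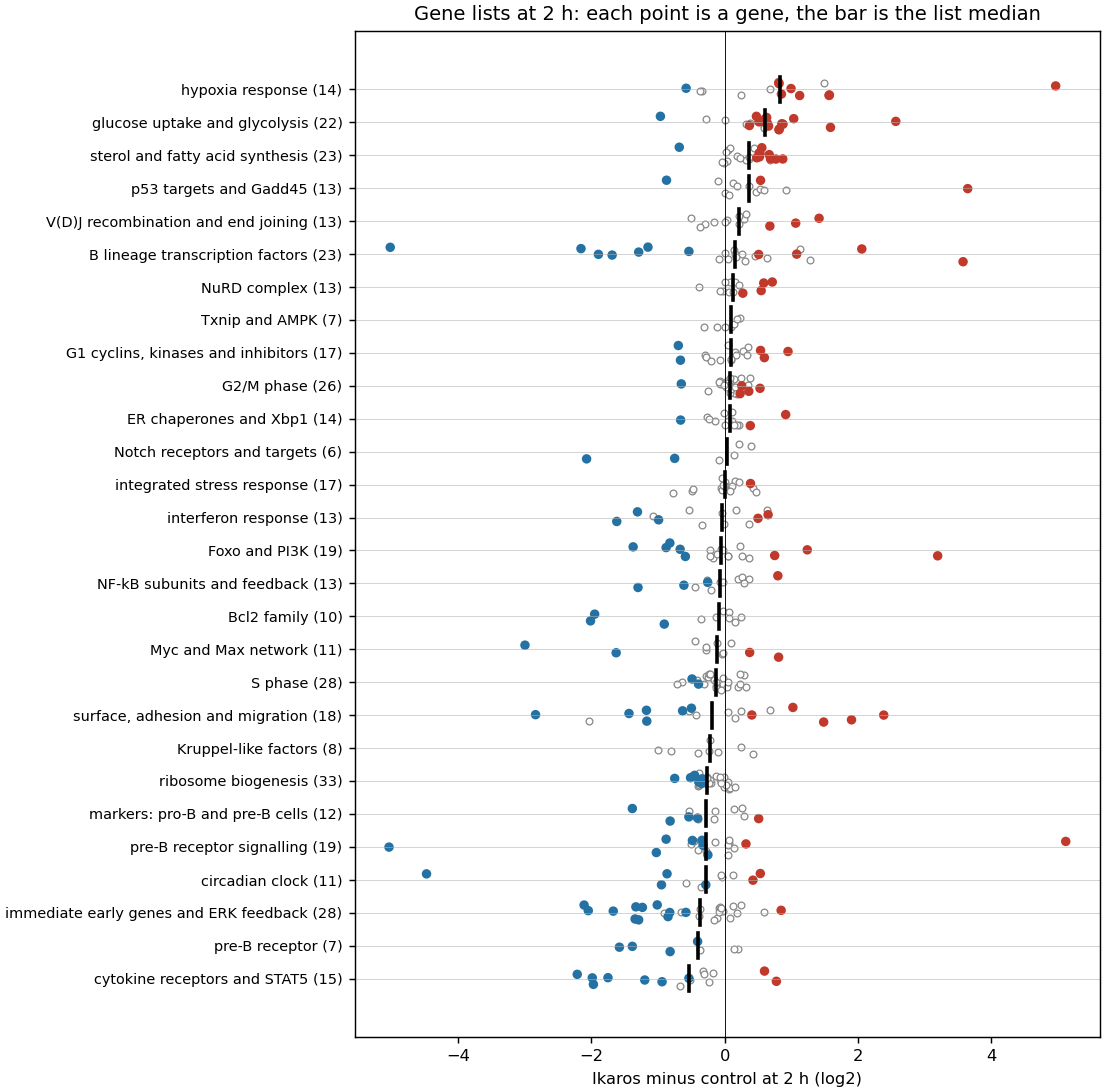
Log2 difference between Ikaros and control cells at 2 h for the members of each gene list with at least 5 measured genes (number in parentheses), ordered by the list median (black bar). Filled points are called genes, red higher and blue lower, and open points are not called; hypoxia and glycolysis lists lie highest with medians of 0.83 and 0.61, and cytokine receptors and STAT5 lie lowest with -0.54.

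The remaining lists held a few large single differences. In the circadian clock list, 4 of 11 genes were lower and 2 higher. The lower count was 2 without replicate 2 of every group, without the Ikaros library of batch 4 or without the control library of batch 3, and 0 were higher without replicate 1 or 2 of every group. Nr1d1, the clock repressor Rev-erb alpha, fell most, from 10.05, 10.25 and 9.88 in control to 5.77, 5.42 and 5.58 in Ikaros cells, with a difference of -0.31 at 0 h and a change of -4.16 (SE 0.35, adjusted p 9.68e-09). It was still lower by 5.04 at 24 h. It overlaps Thra on the opposite strand, and Thra was not called (0.31). Clock (-0.06) and Arntl (-0.03), the activators that Nr1d1 opposes, were not called.

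Of 19 Foxo and phosphoinositide 3-kinase genes 5 were lower and 3 higher, with 3 lower without replicate 2 of every group. Tsc1, an inhibitor of mTORC1, was lower by 1.37 and Sesn3, another inhibitor of it, was higher by 3.19, both present at 0 h (-1.22 and 3.91). Pik3ip1, an inhibitor of phosphoinositide 3-kinase examined after its value was seen, stood at 11.26, 11.10 and 11.41 against 10.41, 10.44 and 10.45, with a change of -0.89 (adjusted p 0.0201), and by 24 h was higher by 3.63. The change in Pik3ip1 had an adjusted p of 0.0695 in a fit of the compared groups alone and 0.344 and 0.472 without replicate 1 and 2 of every group. In the Notch list, Hes5 was lower by 2.07, with -0.98 at 0 h.

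Of 18 surface and adhesion genes 6 were lower and 5 higher. The counts were 3 and 4 without the Ikaros library of batch 4, 2 and 3 without replicate 1, and 2 and 1 without replicate 2 of every group. The integrin gene Itgal was higher by 1.49 and Cd44, an adhesion receptor examined after its value was seen, was lower by 1.43, both already so at 0 h (2.02 and -0.63). Cxcr5, the receptor that guides B cells to follicles, was higher by 1.90 at levels of 5.37 ± 0.61 and 7.27 ± 0.04 (SD, n = 3; adjusted p of 0.0841 and 0.0755 without replicate 1 and 2 of every group), low for this table. Calls were 2 higher and 3 lower of 13 in the interferon list and 1 higher of 17 in the integrated stress list. They were 2 higher and 1 lower of 14 for ER chaperones and 2 higher and 1 lower of 13 for p53 and Gadd45. The Ikaros family list held 1 higher of 3, Ikzf1. Over all genes 9.18% were higher and 9.88% lower. The interferon list had 0 lower without replicate 1 or 2 of every group, 5 without replicate 3, and 1 without the Ikaros library of batch 3 or the control library of batch 1 or of batch 3. In the integrated stress list 3 were higher without the control library of batch 3. The Kruppel-like factors (8 measured) and Txnip and AMPK genes (7 measured) held 0 in the limma fit and after quantile normalization. Without adjustment, 2 Kruppel-like factors and 1 Txnip or AMPK gene had a p under 0.05. With the replicate block, S phase genes had 4 lower and 2 higher calls, and 5 genes of the p53 list, 5 of the Foxo list, 2 of the NF-kB list, 2 of the integrated stress list and 1 of the Notch list were higher, while 1 integrated stress gene and 1 Kruppel-like factor were lower. Of the estrogen receptor list only Esr1 was measured (0.28, adjusted p 0.665).

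The 2 h differences were then followed to later times in the same fit. By 6 h, when 37.3% of all genes were called, 1683 of the 2432 were called again, and 1654 of these kept their direction. At 24 h, where 62.9% of all genes were called, 1830 of the 2432 were called, 1476 in the same direction and 354 in the opposite one. The change of the difference from 2 h to 6 h was called for 5.96% of all genes and for 278 of the 2432, of which 137 moved further from control and 141 moved back. Over all genes this count was 761, and it was 1619 with the replicate block, 47 when only the 4 groups compared were fitted, 41 and 43 without replicate 1 and replicate 2 of every group, 338 without the Ikaros library of batch 4, and 391, 398 and 1272 without the control library of batch 1, 3 and 4 at 2 h. From 2 h to 24 h the change was called for 6037 genes, 47.3% of all (5673 without the Ikaros library of batch 4), and for 1420 of the 2432, 695 moving further out and 725 moving back or across.

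The genes that fell first took different courses. Plekho2 was lower by 1.68 at 6 h and 0.89 at 24 h, Slco4a1 by 2.74 and 0.42, and Thbd by 2.43 at 6 h with a difference of 0.23 at 24 h (adjusted p 0.339). Fam212a, with -2.12 and -2.26, and Fam43a, with -2.08 and -1.64, stayed low. Of the rises, Satb1 (2.24 at 24 h) and Agfg2 (1.70) held about their 2 h value, with changes from 2 h of -0.01 and 0.02. Tubb2b and Neil1 went on rising, to 6.04 and 4.97.

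Bcl2l1 was lower by 1.40 at 6 h and differed by 0.04 at 24 h (adjusted p 0.802). Among genes above the median level with separate groups at 2 h, 163 were called in the opposite direction at 24 h. They were ordered by the difference at 2 h and not by the size of the crossing. The first that went from lower to higher were Il2ra, the interleukin 2 receptor alpha chain (-1.97 at 2 h, 2.43 at 24 h), the globin Hbb-b2 (-1.83 and 1.82), the actin-binding Cnn2 (-1.43 and 0.45), the semaphorin Sema4b (-1.41 and 1.85) and Runx1 (-1.29 and 0.40). Of these, Sema4b and Runx1 had fallen since 0 h, with changes of -1.07 and -1.55, while Il2ra, Hbb-b2 and Cnn2 had been lower from the start. From higher to lower, the first in the same order were Slc16a3 (2.57 and -4.77), Pik3r6 (2.02 and -0.72), Bnip3 (1.57 and -2.10), the small nucleolar RNA gene Gm22661 (1.29 and -0.75) and Ass1, argininosuccinate synthase (1.17 and -1.77). The change from 2 h to 24 h was called for all 10, which is close to given by their choice through opposite calls at these times.

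The letters of 3 motifs were counted in the promoter windows that RefSeq gives on GRCm38.p6, from 250 bases before to 50 bases after a start site, on both strands. A window was found for 8586 of the 12762 genes, 10928 windows in all, and a gene with several start sites counts several times. The Ikaros core TGGGAA was in 22.5% of all windows, in 28.7% of the 1171 windows of genes lower in Ikaros cells and in 20.6% of the 1143 windows of genes higher. For genes whose fall since 0 h was called it was in 30.2% of 189 windows, and for rises in 20.8% of 125. The E-box CACGTG, which Myc binds, was in 10.0% of all windows, 10.4% for lower and 7.52% for higher genes, and the CCAAT box in 38.3%, 35.1% and 37.0%. The median GC content was 60.7% over all windows, 59.7% for lower and 62.0% for higher genes, and its part in these shares was not tested. Windows on chromosome 18 were not used here. A match is no proof of a binding site, and a window without these exact letters says nothing of binding there or elsewhere.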

How the data were processed

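The authors made the mRNA-seq table from stranded dUTP libraries, mapped with TopHat2 to mm10 and counted with HTSeq per the labels, and the strand setting of the counting is not given in the sources used here. The deposited values are log2 levels that the authors normalized for GC content and gene length (cqn), corrected for library preparation (nonparametric ComBat) and shifted to a minimum of 1. Read depth is unknown from them, and overlapping, antisense or near-identical genes may share reads.

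A linear model of 12 line and time groups, each of 3 libraries, was fitted to all 12762 genes with limma 3.58.1 (R 4.3.3), with adjustment over all genes, after a check on simulated data. The batch numbers in the labels pair the lines: after removal of group means, libraries of the same batch at 2 h correlated at 0.129, 0.304 and 0.507. Alternatives were a replicate block, fits of fewer groups, a filter at percentile 25, quantile normalization, other variance settings and leaving out each replicate or library.

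Genes were named by rule: Ikzf1 and the genes the study followed, the 10 largest rises and falls above the median level with lines apart, 6 of each with a called change from 0 h, 5 reversals each way by 24 h, and up to 4 called members of each list, with uncalled members for contrast. Not all are printed, and 14 genes were added after their values were seen. Members and lists were chosen with earlier results of these data known. Promoters are RefSeq windows (GRCm38.p6).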

Additional observations from a re-analysis of the deposited data

Results flagged for a closer look

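The results below had a difference between the lines that differed between 2 h and another time by the test of that difference (limma, adjusted over all genes, adjusted p under 0.05). No explanation was tested for any of them.

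From 0 h to 2 h the difference fell in Plekho2 (-2.92), Slco4a1 (-2.18), Thbd (-2.67), 2900097C17Rik (-3.21), Fam212a (-2.56) and Fam43a (-2.16), and among the genes the study followed in Myc (-1.56) and Igll1 (-1.16). It rose in Foxo1 (0.58), Lig4 (1.44), Neil1 (1.63), P2ry10 (1.34), Tubb2b (1.77), Agfg2 (1.63), Pik3r6 (1.22) and Satb1 (1.06). The 0 h cultures are of other collection occasions, so time and occasion cannot be told apart in these values.

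From 2 h to 24 h the difference rose in Il2ra (4.40), Hbb-b2 (3.64), Cnn2 (1.88), Sema4b (3.26) and Runx1 (1.69). It fell in Ass1 (-2.93), Gm22661 (-2.04), Bnip3 (-3.66), Pik3r6 (-2.74) and Slc16a3 (-7.34), the last moving from above to far below control. The genes that rose and fell here were chosen by opposite calls at 2 h and 24 h, so a called change was close to given. No group had 4 or more libraries, so no test for a single distant library was made.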

How the results depend on the processing

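Fitted alone, the 2 h libraries gave 860 calls, 405 higher and 455 lower, and 1725 with a replicate block, 781 higher and 944 lower. Leaving out one replicate of every group gave 804 to 2719 calls, 373 to 1280 higher, 431 to 1439 lower, and 496 to 903 with a size of at least 1, a count that was 323 without genes under percentile 25 of the mean. With the replicate block, 661 changes from 0 h and 1619 from 2 h to 6 h were called, and with the compared groups alone 257 and 47. In the fit of all groups, the block moved no other count over all genes by over 1.5 times. Leaving out one replicate of every group gave 54 to 469 changes from 0 h, 41 to 685 from 2 h to 6 h (and 338 without the Ikaros library of batch 4, 391, 398 and 1272 without the control library of batch 1, 3 and 4) and 3775 to 6217 from 2 h to 24 h. The cause was not tested. Of 134 named genes called at 2 h, 69 kept call and direction in every alternative run, which were 15, or 14 for the 19 named genes below percentile 25. Only Slc7a5 reversed its sign. It was 0.0079 without replicate 1 of every group and 0.14 without the Ikaros library of batch 4. Without the control library of batch 1 and 3 it was 0.066 and 0.042, while without replicate 2 of every group it stayed at -0.074. Without replicate 1 of every group, genes that lost their 2 h call included Tnfaip3 (0.108), Dusp4 (0.0697), Nip7 (0.0818), Tsr1 (0.0795), Wdr75 (0.108), Dusp5 (0.0707) and Gm22661 (0.0842), with adjusted p (limma) in parentheses. Without replicate 2 of every group, genes that lost their 2 h call included 2900097C17Rik (0.0559), Id1 (0.0738), Hbb-b2 (0.0848), Dusp4 (0.0941), Cdk6 (0.0959), Tsr1 (0.0747), Wdr75 (0.186), Sc4mol (0.0671) and Gm22661 (0.0977), with adjusted p (limma) in parentheses. The gene list counts under each left-out library were chosen after seeing the data. Read depth is unknown, so low levels carry an unknown counting error.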
